A study of Mus musculus with 6 samples.

Results

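The genes described here encode enzymes that work inside the lysosome, proteins of its membrane, parts of its proton pump, and Tfeb, a transcription factor for lysosomal genes. The list names 31 genes by their function, and it was drawn up with earlier results of these data known. Its shares beside those of all genes are therefore descriptive. Of the 31, 30 had a probe set with a single gene symbol, and all 30 were measured, meaning that their signal exceeded a floor of 221.4 on at least 1 of 6 arrays. The floor is the 50th percentile of all deposited signals. The 30 stood among 13989 measured genes of 18194 with such a probe set, and 28 of them were above the floor on all 6 arrays, against 70.6% of all measured genes. Atp6v0c, a subunit of the pump, had no probe set with a single symbol and was not analysed here.

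Livers came from male mice of the inbred strain C57BL6/J. Their RNA was hybridised to Affymetrix whole-genome mouse arrays, with 1 array for each group and RNA of 3 to 4 livers pooled on it. Mice entered at 6 to 8 weeks of age and were given chow, a fast-food diet, or that diet with canertinib, for 2 months or for 5 months. By weight the diet was 21% fat and 34% sucrose, cholesterol made up 0.2%, and the mice drank water with glucose and fructose. Canertinib, an irreversible inhibitor of EGFR and related receptor kinases, was mixed into the food for the whole 2-month study at an estimated daily 80 mg/kg. In the 5-month study it was injected into the peritoneum at 80 mg/kg on 5 days a week during the last 5 weeks, and the diet group received vehicle injections. For the chow mice of that study the labels give no injection, so diet and injection cannot be told apart there. Route and length of treatment changed together with the length of the study. With a single array a group no difference within a study has a replicate check or an error of its own.

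Lysosomes are acidic organelles in which proteins, glycans and lipids taken up from outside the cell or delivered by autophagy are broken down. A proton pump in the membrane keeps the interior acidic, most hydrolases reach it through the mannose 6-phosphate route, and heavily glycosylated membrane proteins shield the limiting membrane. In the liver, hepatocytes use lysosomes to release fatty acids from lipid droplets and lipoproteins, and resident macrophages, the Kupffer cells, use them to digest engulfed cells and particles. TFEB and its relatives TFE3 and MITF bind a short promoter element, the CLEAR element, that many lysosomal genes carry.

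That element was looked up first, because it is the best known link between the genes of the list. Windows from 250 bases before to 50 after each annotated transcription start came from RefSeq (GRCm38.p6) and held 28 of the 31 genes. Both strands were searched for the core CACGTG and for the longer form TCACGTGA, which contains the core, and each motif reads the same on either strand. The core was present for 10 of the 28 genes (35.7%), against 2187 of 27025 genes with a promoter (8.09%). The longer form was present for 5 genes (17.9%), against 304 of all genes (1.12%). Among other genes of the lysosome, its delivery routes and autophagy, described further below, 90 had a promoter. Of these, 22 had the core (24.4%) and 8 the longer form (8.89%), so the element is not particular to the list. By role within the list, the core was found for 4 of 8 proteases, 3 of 9 glycosidases, 0 of 3 lipid genes, 2 of 5 membrane and regulator genes, and 1 of 3 pump genes. A match is a stretch of letters and no evidence of binding. The sequences below are those of the 4 proteases and of both membrane proteins, written in the direction of transcription with the motif, in its longer form where present, in capitals.
Ctsa, chr2:164833749-164833795, plus strand: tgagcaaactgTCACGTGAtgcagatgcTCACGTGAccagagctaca
Ctsd, chr7:142387908-142387937, minus strand: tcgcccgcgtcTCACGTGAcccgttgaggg
Ctsl, chr13:64370739-64370768, minus strand: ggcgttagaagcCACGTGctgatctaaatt
Lgmn, chr12:102439124-102439153, minus strand: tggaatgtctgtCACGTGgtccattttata
Lamp1, chr8:13159088-13159163, plus strand: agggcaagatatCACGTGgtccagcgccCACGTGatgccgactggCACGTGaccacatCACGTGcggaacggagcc
Mcoln1, chr8:3500436-3500491, plus strand: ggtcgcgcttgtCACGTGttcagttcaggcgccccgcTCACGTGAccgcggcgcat
Lamp1 carried 4 copies of the core within 76 bases just upstream of its start, and Ctsa carried 2 copies of the longer form that flank its start. Ctsd had another copy of the core farther upstream, and Gla 2 copies of the longer form.

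In the liver on the fast-food diet, a set of proteases and lipid and glycan enzymes was higher than on chow. At 2 months 7 of the 30 genes were at least 1.5-fold higher (23.3%, against 7.51% of all measured genes) and 2 were at least 1.5-fold lower (6.67%, against 7.01%). At 5 months 8 were higher (26.7%, against 8.45%) and 0 lower (against 7.57%). Ctsd, Ctss, Lgmn, Hexa and Lipa were at least 1.5-fold higher at both times, which is 16.7% of the list, against 2.39% of all genes, and 0 were lower at both, against 1.34%. Without regard to size, 15 of 30 were higher at both times, against 23.3% of all genes. The median log2 difference of the 30 was 0.09 at 2 months and 0.28 at 5 months, where the median of all measured genes was 0.

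With canertinib added, several proteases were higher than on diet alone, and Lipa was lower. At 2 months 9 of the 30 were at least 1.5-fold higher (30%, against 10.9% of all genes) and 1 lower (3.33%, against 10.6%). At 5 months 2 were higher (6.67%, against 8.22%) and 2 lower (against 9.25%), so the 5-month count did not exceed that of all genes. Ctsc and Ctsl were at least 1.5-fold higher at both times (against 3.08% of all genes), and Lipa was lower at both (3.33%, against 3.05%). By sign alone 15 of 30 were higher at both times, against 25.9% of all genes, and 7 of 30 lower, against 27.0%. The medians were 0.26 and 0.01, and the median of all genes was again 0. Since both comparisons of a study use the diet array, an unusual value there moves them in opposite directions, and values against chow are therefore given beside them.

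Most of the list's members were above chow in mice on diet and drug together. Against chow, 12 of the 30 were at least 1.5-fold higher at 2 months (40%, against 10.6% of all genes) and 1 lower (against 10.1%). At 5 months 10 were higher (33.3%, against 8.92%) and 0 lower (against 10.0%). Ctsa, Ctsb, Ctsc, Ctsl, Ctss, Ctsz, Lgmn, Hexa and Npc2 were at least 1.5-fold higher at both times, 30% of the list against 3.82% of all genes, and 0 were lower at both, against 3.25%. By sign 22 of 30 were higher at both times, against 25.8% of all genes, and Gaa alone was lower at both. Some of these calls depend on the processing. Under quantile normalization Ctsb was at 0.50 and 0.46 on the log2 scale. Averaged over probe sets, Ctsa was at -0.41 and 0.09, Ctsc at 0.29 and 0.41, Npc2 at 0.26 and 0.27, and Ctsl at 0.50 at 5 months, each below 1.5-fold higher. The 2 chow arrays, which differ by age and study, had 1 member at least 1.5-fold higher (3.33%, against 5.53%) and 1 lower (against 6.70%) at 5 months.

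At a 2-fold threshold few members remained. With the diet 1 was higher at 2 months (against 1.98% of all genes) and 0 lower (against 1.55%), and at 5 months 3 were higher (against 2.72%) and 0 lower (against 1.83%). With the drug 2 were higher at 2 months (against 3.55%) and 0 lower (against 3.26%), and at 5 months 0 were higher (against 2.19%) and 0 lower (against 2.73%). The 3 past 2-fold with the diet were Ctss, Lgmn and Hexa, and the 2 with the drug were Ctsc and Ctsl.

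**Figure D1:**
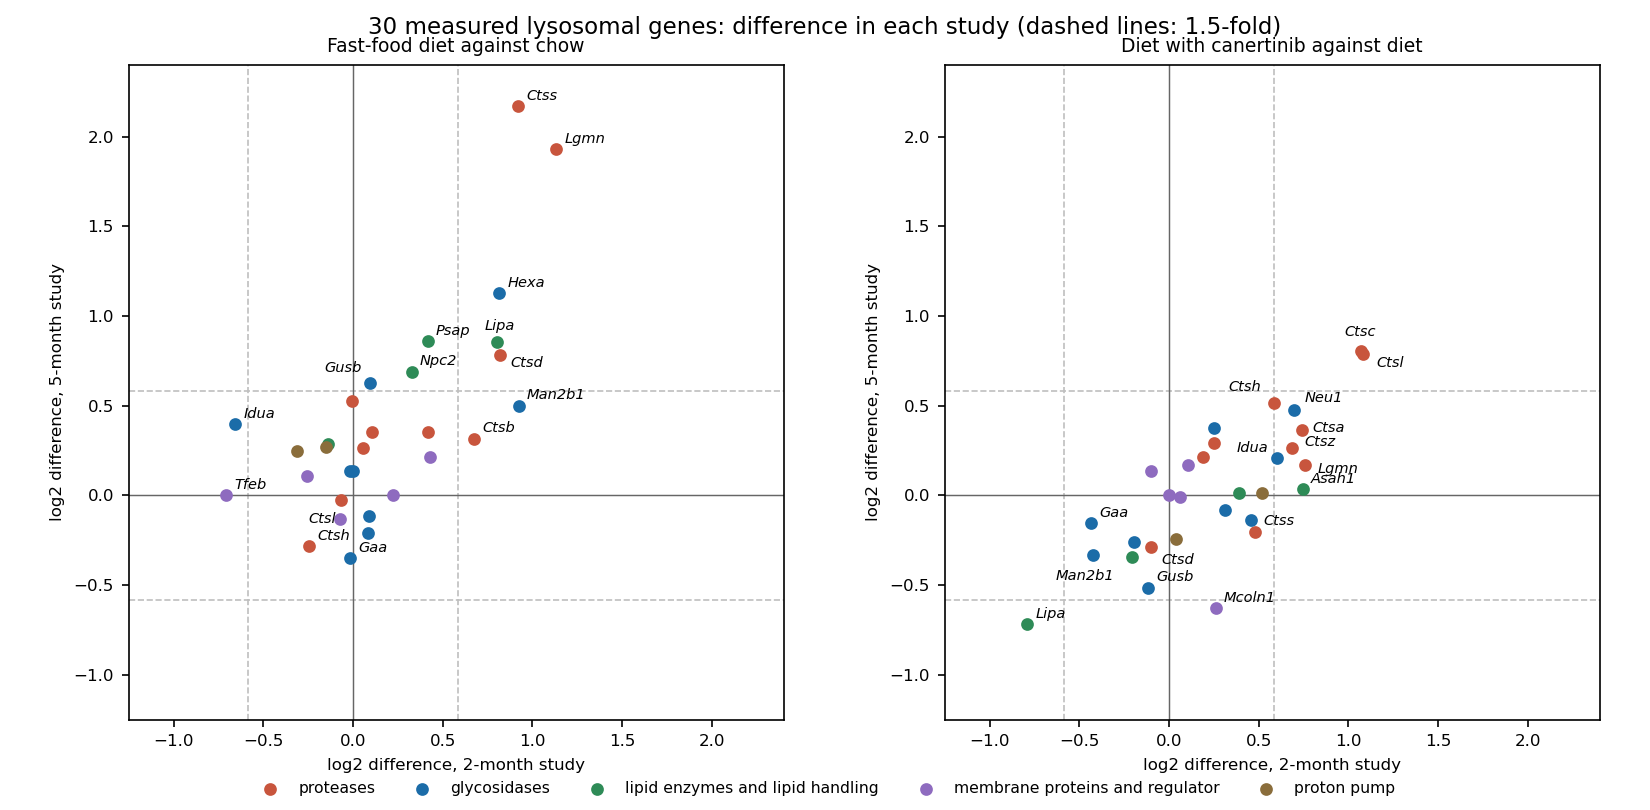
Log2 difference of each of the 30 measured genes in the 2-month study (horizontal axis) and in the 5-month study (vertical axis), for diet against chow (left) and for diet with canertinib against diet (right), coloured by role. Ctss, Lgmn, Hexa, Lipa and Ctsd lie beyond the dashed 1.5-fold lines in the upper right on the left, and Ctsc and Ctsl do so on the right, with Lipa at the lower left.

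Among the 10 proteases the median log2 difference was 0.26 and 0.35 with the diet, 0.63 and 0.28 with the drug, and 0.97 and 0.74 for drug and diet against chow, at 2 and 5 months. By the probe set used, all 10 were above chow on the arrays of drug and diet at both times, 8 of them at least 1.5-fold at 2 months (against 10.6% of all genes) and 7 at 5 months (against 8.92%). That count includes Ctsa, whose other probe set was below chow (-1.98 and -0.54). The chow arrays themselves differed by a median of 0.23 for these genes, with 9 of 10 higher at 5 months. Lgmn, Ctss, Ctsd and Ctsb, described first, differed with the diet, and Ctsl and Ctsc with the drug.

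Lgmn encodes legumain, an endopeptidase that cuts after asparagine and processes other cathepsins to their active forms. Its signal in the 2-month study was 961 on chow, 2104 on diet and 3556 on diet with drug, and in the 5-month study 1026, 3906 and 4401. The chow arrays were alike and the lowest, and both drug arrays lay above the diet array of their study. The diet difference was 2.19-fold (log2 1.13) at 2 months and 3.81-fold (1.93) at 5 months, and the drug difference 1.69-fold (0.76) and 1.13-fold (0.17). Against chow, diet and drug together were 3.70-fold and 4.29-fold higher.

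Ctss encodes cathepsin S, a protease of antigen-presenting cells that trims the invariant chain of MHC class II. It stood at 1108, 2096 and 2923 on the chow, diet and drug arrays of the 2-month study and at 1338, 6021 and 5234 in the 5-month study. Diet arrays were 1.89-fold and 4.50-fold above chow, the larger value being the largest diet difference of any member. The drug difference had opposite signs, 0.48 on the log2 scale at 2 months and -0.20 at 5 months.

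Ctsd, the aspartic protease cathepsin D, read 4904 on chow, 8650.1 on diet and 8074 with drug in the 2-month study, and 5732, 9866 and 8089 in the 5-month study. The diet difference was nearly the same in both studies, 1.76-fold and 1.72-fold, and the drug arrays lay slightly below the diet arrays (log2 -0.10 and -0.29) and above chow. Ctsb, the cysteine protease cathepsin B, was lowest on chow and highest with the drug within each study, with 18819, 29989 and 35734 at 2 months and 22057, 27463 and 33609 at 5 months. Its diet difference was 1.59-fold and 1.25-fold, and its drug difference 1.19-fold and 1.22-fold. A second bright Ctsb probe set gave 0.67 and 0.58 for the diet and 0.03 and 0.01 for the drug on the log2 scale, so the drug step was not seen there. Under quantile normalization the 2-month diet difference of the brightest Ctsb probe set was 0.51 (log2), below 1.5-fold. Of the 5 Ctsb probe sets 3 were higher with the diet at 2 months, and the others, which are dim, gave -0.10 and -0.37. Averaged over probe sets, the 2-month diet difference was 0.25.

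Ctsl encodes cathepsin L, a broad cysteine endopeptidase that is abundant in liver. Signals were 15759 on chow, 15059 on diet and 31906 with drug at 2 months, and 16236, 15941 and 27482 at 5 months. All 4 arrays without drug lay between 15059 and 16236, and both drug arrays lay well above them. The drug difference was 2.12-fold and 1.72-fold, and the diet difference on the log2 scale -0.07 and -0.03. A second, dim Ctsl probe set was also higher with the drug, by 1.82 and 0.62 (log2). Its 2-month diet array was below the floor, so the 1.82 is a bound. Unlike the first, this probe set was lower with the diet, by -0.80 (also a bound) and -0.39. With diet and drug it was at 1.01 and 0.23 against chow. Under quantile normalization the 5-month drug difference of Ctsl was 0.50 on the log2 scale, below 1.5-fold.

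Ctsc encodes cathepsin C (dipeptidyl peptidase I), which activates the serine proteases of neutrophils, mast cells and cytotoxic lymphocytes. It read 3602, 3870 and 8128.5 at 2 months and 4079, 5204 and 9099 at 5 months, again with the drug arrays apart from the other 4. The drug difference was 2.10-fold and 1.75-fold, and the diet difference 1.07-fold and 1.28-fold. The other 2 Ctsc probe sets were at or close to the floor and add nothing to this, but averaging all 3 lowers the drug difference to 0.36 and 0.29 (log2).

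Ctsa, the carboxypeptidase that also protects neuraminidase 1 and beta-galactosidase, read 1590.0, 2127 and 3560.0 at 2 months and 2530.0, 3236 and 4169 at 5 months. Its chow arrays already differed by 1.59-fold, more than its diet differences of 1.34-fold and 1.28-fold. Another Ctsa probe set went the opposite way with the drug, by -1.97 at 2 months and -0.20 at 5 months, so the direction is uncertain for this gene. Ctsz, the carboxypeptidase cathepsin Z, was 1.61-fold higher with the drug at 2 months and 1.20-fold at 5 months, and its 3 probe sets all had that sign. Ctsh, an aminopeptidase, was lower with the diet (log2 -0.24 and -0.28) and higher with the drug (0.59 and 0.51), and both of its probe sets shared those signs. Tpp1, the tripeptidyl peptidase whose loss causes a neuronal ceroid lipofuscinosis, ranged from 3617 to 5880.4, and none of its diet and drug differences reached 1.5-fold.

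**Figure D2:**
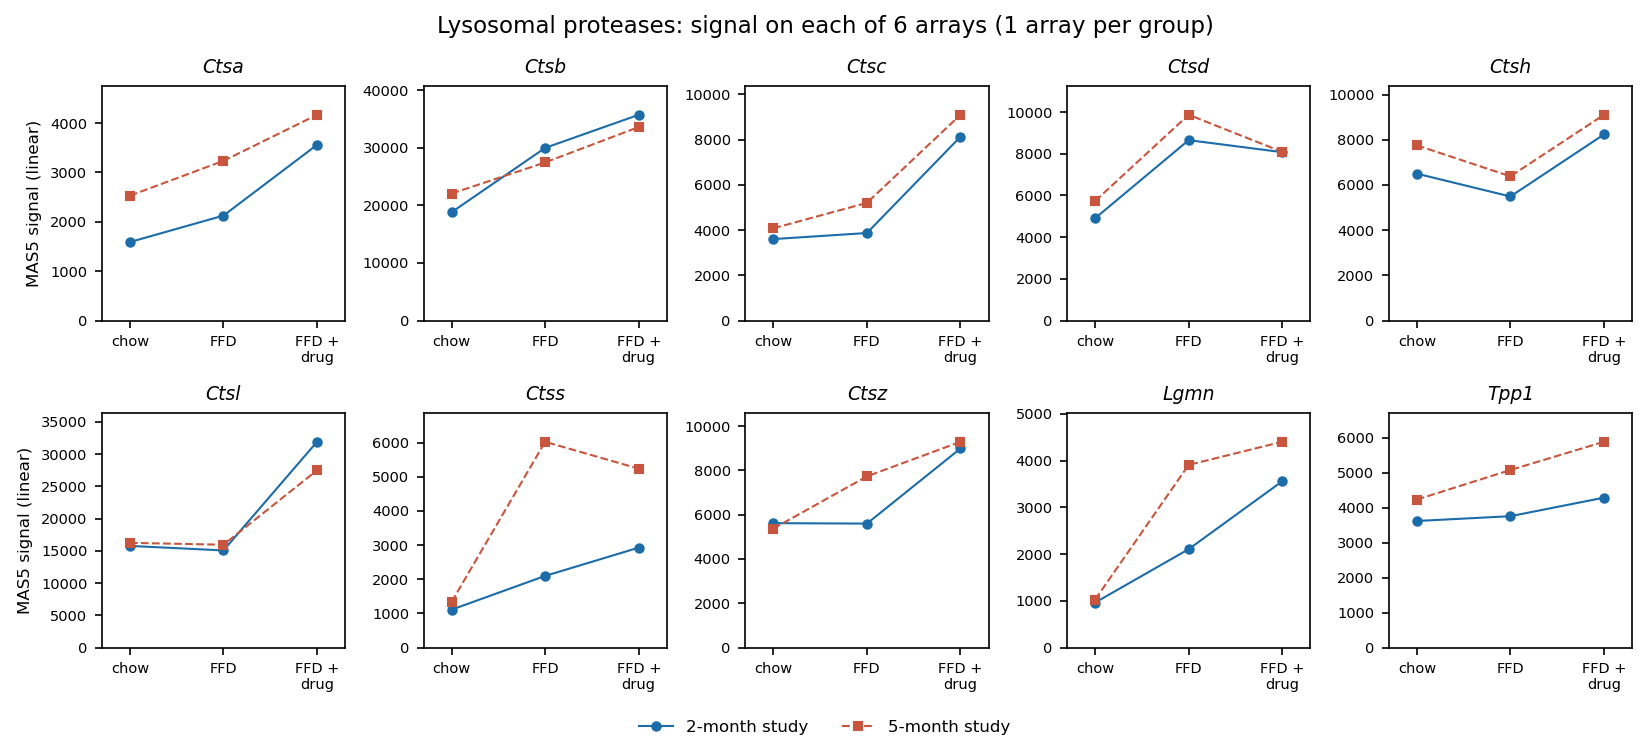
MAS5 signal (linear, from 0) of the 10 proteases on the chow, fast-food diet (FFD) and FFD with canertinib arrays, with the 2-month study as circles with solid lines and the 5-month study as squares with dashed lines. Lgmn and Ctss are lowest on both chow arrays, whereas Ctsl and Ctsc are high on both drug arrays only.

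The 9 glycosidases had median log2 differences of 0.08 and 0.14 with the diet and 0.25 and -0.14 with the drug, and only Hexa was past 1.5-fold at both times in any of these. Hexa, the alpha subunit of beta-hexosaminidase, which degrades GM2 ganglioside, read 1466.5, 2575 and 2252.5 at 2 months and 1522, 3323 and 2778 at 5 months. The diet array was the highest and the chow array the lowest of each study. The diet difference was 1.76-fold and 2.18-fold, and the drug difference on the log2 scale -0.19 and -0.26.

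Man2b1, the lysosomal alpha-mannosidase, read 2737, 5189 and 3866 at 2 months and 3845, 5439 and 4315 at 5 months, so the diet array was highest in each study. It was 1.90-fold and 1.41-fold higher with the diet and lower with the drug by 0.42 and 0.33 on the log2 scale (drug minus diet -0.42 and -0.33). A much dimmer Man2b1 probe set had the opposite sign for the diet, -0.14 and -0.72. With the drug it gave -0.18 at 2 months and 0.58 at 5 months, the opposite sign there. Its 5-month diet array was below the floor. Gusb, beta-glucuronidase, stood out on the 5-month diet array only, at 1666, where the other 5 arrays ranged from 1078 to 1177. Both Gusb probe sets were higher with the diet at 5 months, by 0.63 and 0.88, and only 1 of them was lower with the drug there.

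Neu1, the lysosomal sialidase, was higher with the drug, 1.62-fold at 2 months and 1.39-fold at 5 months, with signals of 763, 808 and 1308 and of 852, 736 and 1025. Both drug arrays were the highest of their study. A second probe set of Neu1 had the same sign at 2 months and the other at 5 months (-0.18). Idua, alpha-L-iduronidase, was 1.58-fold lower with the diet at 2 months, 1.32-fold higher at 5 months, and 1.52-fold higher with the drug at 2 months. Its other probe set was near 0 for the first 3 of these, at -0.03, -0.01 and -0.04.

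Gaa, the acid alpha-glucosidase that degrades glycogen, was lowest on the drug array of each study, with 2594.5, 2567 and 1899 at 2 months and 2403, 1888.5 and 1699 at 5 months. Against chow it was lower by 0.45 and 0.50 on the log2 scale with diet and drug (values -0.45 and -0.50), but its other probe set gave 0.00 and 0.16. Glb1, beta-galactosidase, ranged from 537 to 698, highest on the drug arrays, and Fuca1, alpha-L-fucosidase, from 3198 to 4154. Gla, alpha-galactosidase A, was above the floor on only 2 arrays, at 304 on the 2-month drug array and 243 on the 5-month diet array.

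The 4 lipid genes had medians of 0.37 and 0.77 with the diet and 0.09 and -0.17 with the drug. Lipa encodes lysosomal acid lipase, which releases cholesterol and fatty acids from cholesteryl esters and triglycerides. Its signal was 3725.5 on chow, 6507 on diet and 3759 on diet with drug at 2 months, and 4441, 8030 and 4892 at 5 months. In each study the diet array stood alone, and the drug array was close to chow, 1.01-fold and 1.10-fold above it. The diet difference was 1.75-fold and 1.81-fold, and the drug difference on the log2 scale -0.79 and -0.71. All 3 probe sets of Lipa had these signs in all 4 comparisons, from 0.62 to 0.97 with the diet and from -0.66 to -1.07 with the drug. Because both comparisons of a study rest on its diet array, the high and the low are the same observation seen from either side, made once in each study.

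Psap, the precursor of the saposins that present sphingolipids to their hydrolases, was also highest on the diet array of each study. Its signals were 2782, 3713 and 3220.1 at 2 months and 2361, 4280.2 and 3375 at 5 months. By the probe set used, Psap with diet and drug stayed 1.16-fold and 1.43-fold above chow, whereas its other probe set was below chow (log2 -0.30 and -0.31). Both of its probe sets were higher with the diet (0.42 and 0.09 at 2 months, 0.86 and 0.59 at 5 months) and lower with the drug (-0.21 and -0.39, then -0.34 and -0.91). Npc2, the soluble carrier that hands cholesterol to NPC1, was not highest on the diet arrays. Its signals were 2548, 3196 and 4195 at 2 months and 3179.5, 5128 and 5171 at 5 months, so the drug arrays were not below the diet arrays. A second bright probe set of Npc2 gave -0.08 and 0.66 for the diet and a dim one -0.08 and -0.23, so its 2-month direction with the diet is uncertain. Asah1, acid ceramidase, was 1.67-fold higher with the drug at 2 months and 1.03-fold at 5 months.

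The membrane proteins differed little. Lamp1, a main glycoprotein of the limiting membrane, ranged from 16162 to 22737 with chow lowest in each study, and was 1.34-fold and 1.16-fold higher with the diet. Lamp2, its relative with a role in chaperone-mediated autophagy, ranged from 13975 to 16992. Scarb2, the receptor that carries glucocerebrosidase to the lysosome, ranged from 6476.5 to 7665. None of the 3 reached 1.5-fold in the diet and drug comparisons.

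Mcoln1, a calcium channel of the lysosomal membrane, was 1.54-fold lower with the drug at 5 months and 1.20-fold higher at 2 months. Its other 2 probe sets were higher with the drug at 5 months, by 0.83 and 0.17, so the direction is uncertain. Tfeb was at 361 on the 2-month chow array and below the floor on the other 5. The fold between them is at least 1.63, and a signal this dim says little about the factor. Of the pump, Atp6v1a, the catalytic subunit, ranged from 1637 to 2033, and Atp6ap1, an accessory subunit, from 1130.5 to 1799, without a 1.5-fold difference.

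**Figure D3:**
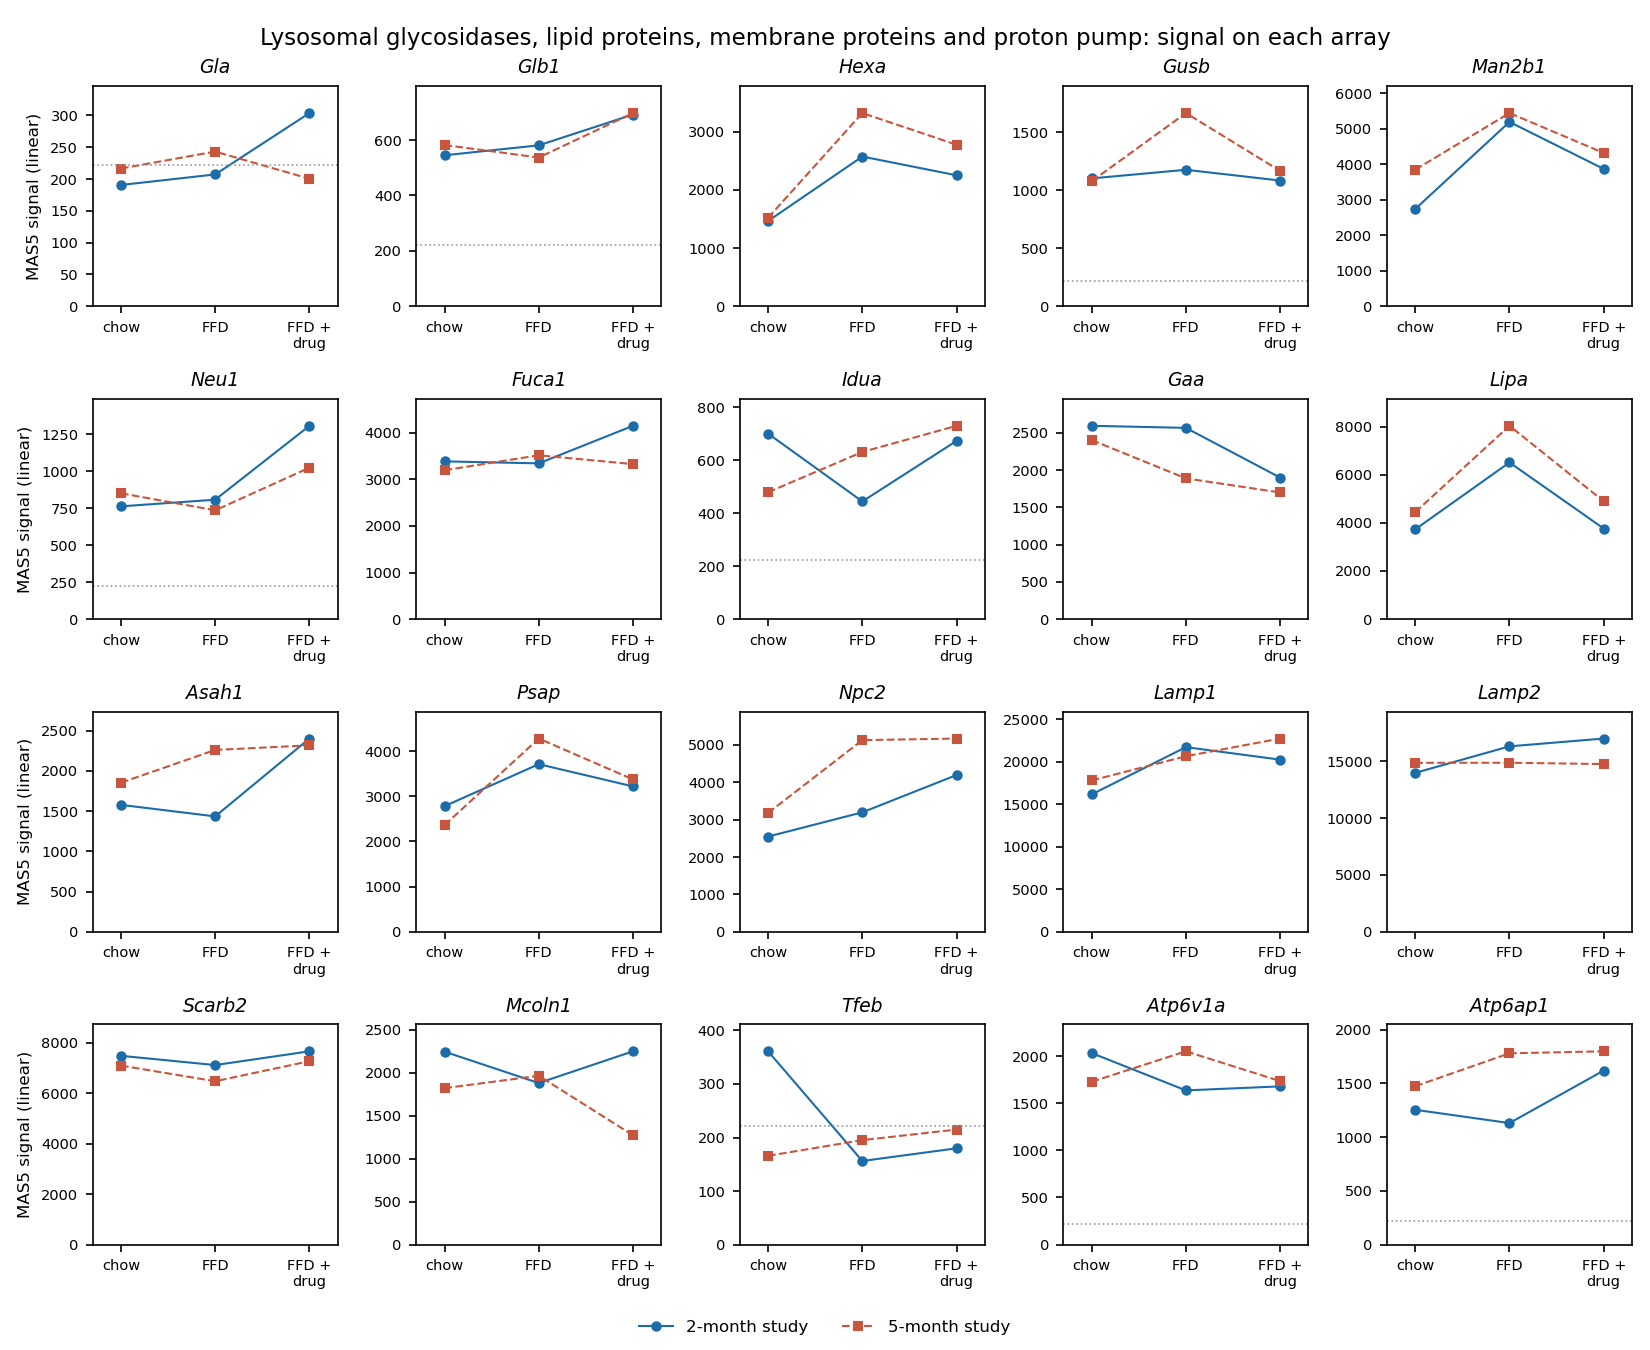
MAS5 signal (linear, from 0) of the 20 other measured genes by array, drawn as for the proteases, with the floor as a dotted line where it lies within the lower scale. Lipa, Hexa, Man2b1 and Psap peak on the diet array of each study, and Lamp1, Lamp2 and Scarb2 are nearly level.

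**Figure D4:**
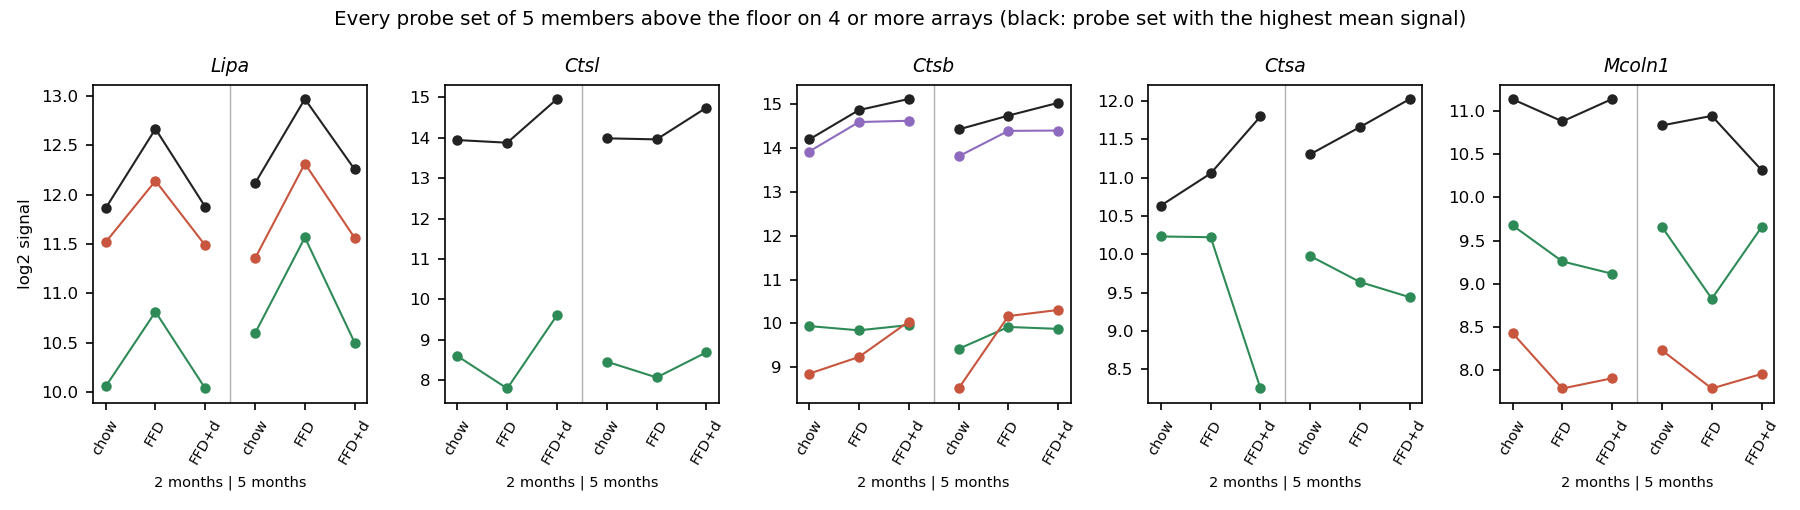
Log2 signal on each array (chow, FFD, FFD with drug, for 2 and then 5 months) of every probe set of 5 genes that was above the floor on at least 4 arrays, with the probe set used in black. The 3 probe sets of Lipa run in parallel, whereas those of Ctsa and Mcoln1 diverge with the drug.

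The values were then read by promoter core. The 10 with the core had median log2 differences of 0.05 and 0.18 with the diet and 0.26 and 0.00 with the drug, and the 17 measured members whose promoters lacked it 0.09 and 0.40, and 0.19 and 0. Both groups included members with large differences, such as Lgmn and Ctsl with the core and Ctss, Hexa and Ctsc without. No test was made of this comparison.

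With both studies taken as repeats, a limma model with terms for treatment and study gave each gene an error, on 2 residual degrees of freedom. At a Benjamini-Hochberg adjusted p under 0.05 it called 4 genes for the diet (0.0286% of 13989) and 100 for the drug (0.715%), and 0 members for either. At an unadjusted p under 0.05 limma had 8 members for the diet and 8 for the drug, against 9.87% and 14.8% of all genes. Without a variance trend limma had 9 and 6 members at that level, against 10.05% and 15.13% of all genes. At an adjusted p under 0.05 that fit called 0 genes for the diet and 26 for the drug, again with 0 members. For the diet Lgmn was at 1.53 ± 0.21 (SE, n = 2 studies, limma adjusted p = 0.144) and Hexa at 0.97 ± 0.14 (limma adjusted p = 0.144). Ctss had 1.54 ± 0.29 (limma adjusted p = 0.213), Lipa 0.83 ± 0.12 (limma adjusted p = 0.147) and Ctsd 0.80 ± 0.14 (limma adjusted p = 0.194), all higher in both studies. For the drug Ctsc was at 0.94 ± 0.13 (limma adjusted p = 0.0640), Ctsl at 0.93 ± 0.19 (limma adjusted p = 0.125) and Lipa at -0.75 ± 0.12 (limma adjusted p = 0.0758). These differences are several times their error, yet none passed the correction over all genes. The members given were those past 1.5-fold in the same direction in both studies, so a large ratio to the error is partly built in by that choice. For the drug the fit also takes dosing in food and by injection as repeats.

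The list was set beside other genes of the lysosome, its delivery routes and autophagy, of which 106 of 119 listed were measured. Past 1.5-fold with the diet, 10 of the 106 lay above chow (9.43%, against 7.51% of all genes) and 7 below it (6.60%, against 7.01%) in the 2-month study. In the 5-month study 13 lay above (12.3%, against 8.45%) and 1 below (0.943%, against 7.57%). With the drug 14 lay above the diet array (13.2%, against 10.9%) and 12 below it (11.3%, against 10.6%) in the first study, and 7 above (6.60%, against 8.22%) and 7 below (6.60%, against 9.25%) in the second. The named ones were chosen as the 4 with the largest difference in each direction held at both times. Higher with the diet were Cd68, a macrophage lysosomal glycoprotein (0.83 and 1.68), Laptm5, a lysosomal membrane protein of blood cells (0.74 and 0.69), Gga2, a sorting adaptor (1.02 and 0.60), and Atp6v0e of the pump (0.47 and 0.64). Lower were Npc1, the membrane partner of Npc2 (-0.48 and -0.37), Gm2a, the activator used by beta-hexosaminidase A (-0.34 and -0.56), Atp6v1d (-0.30 and -0.45) and the autophagy kinase Ulk1 (-0.30 and -0.31). With the drug Grn, the progranulin gene (1.11 and 0.87), Map1lc3b of the autophagosome (0.97 and 0.78), Atp6v1g1 (0.87 and 0.76) and the sulfatase Sgsh (0.60 and 0.55) were higher. Arsa, the arylsulfatase that degrades sulfatide (-1.41 and -0.80), Gga2 (-1.10 and -0.79), the nuclease Dnase2a (-1.33 and -0.52) and Map1lc3a (-0.45 and -0.54) were lower. Gga2 with diet and drug was near chow (-0.08 and -0.19), so its high and its low are the same observation on the diet arrays. Sgsh was lower with the diet (-0.93 and -0.21), and with diet and drug it was at -0.34 and 0.34 against chow. Its higher value with the drug at 2 months therefore rests on a low diet array.

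Several of these genes are expressed strongly in macrophages, so marker genes were read on the same arrays. In whole liver, more cells of a type and more RNA per cell cannot be told apart. Of the macrophage markers 9 of 10 were measured, and Itgam was at the floor on all arrays. Of these, 8 were at least 1.5-fold higher with the diet at each time, and the summed signal of all 10 was 11514 on chow, 23210 on diet and 26006 with the drug at 2 months, and 11213, 26304 and 33200 at 5 months. All 8 Kupffer cell markers were measured, and their sum was 7909.7, 20917 and 28640, then 8098.5, 28750 and 31177. At 2 and 5 months 5 and 6 of the 8 were at least 1.5-fold higher with the diet, and 4 and 3 with the drug. Ctss, Lgmn, Hexa and Ctsd had their lowest signal on chow in both studies, as these sums did. By the probe set used, so did Ctsa, Ctsb, Ctsc, Tpp1, Man2b1, Lipa, Psap, Npc2 and Lamp1, so this shape was common among the members. The part of the macrophage markers in these differences was not tested. For lipid-associated macrophages Trem2 was at the floor on all arrays, and the summed signal was 816.0, 1552, 2480 and then 872, 5257, 4067. Of 7 stellate cell markers, 4 were at least 1.5-fold higher with the diet at each time, and 1 at 2 months and 4 at 5 months were at least 1.5-fold lower with the drug. Their sum was 10602 on chow, 17596 on diet and 18815 with drug at 2 months, and 8966, 22633 and 13380.0 at 5 months. Dcn made up much of it, and without Dcn the sum was 4703, 7260 and 5985, then 4509, 6782 and 4486, highest on the diet array of each study. By the probe set used, Lipa, Psap, Hexa, Ctsd, Man2b1 and Gusb, the last narrowly at 2 months, were also highest on the diet array of each study. The other probe set of Gusb was highest on the drug arrays, and that of Man2b1 on the chow arrays. Of the members highest on diet, all except Gusb are also among the members lowest on chow named above. The part of the stellate cell markers in those differences was not tested.

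Markers of other cell types differed with the drug. Neutrophil markers, 7 of 8 measured with Camp at the floor, were all at least 1.5-fold higher with the drug at both times, and the sum of all 8 was 4795 on diet and 88444 with drug at 2 months and 7030 and 84709 at 5 months, where chow had 2844 and 3607. Lcn2, which other cells also make and which, like Dcn, was singled out after its values were seen, supplied 73181 and 68150.0 of the drug sums. Without it the sums were 3051.5 on diet and 15263 with drug at 2 months, and 2548.5 and 16559 at 5 months. Hepatocyte markers defined the tissue, with sums of 263800 on chow, 312020 on diet and 399560 with drug in the 2-month study and 291040, 222740 and 305340 in the 5-month study, and 3 of 7 were at least 1.5-fold higher with the drug at each time. The log2 ratio of 3 prime to 5 prime actin probe sets, a sign of RNA integrity, was 1.19 and 1.12 on the drug arrays and from 0.85 to 0.98 on the other 4. The same ratio for Gapdh was -0.20 and -0.14 on the drug arrays, within the range of the other 4 (-0.30 to -0.09). Of the 8 Kupffer cell markers, 4 at 2 months and 3 at 5 months were also at least 1.5-fold higher with the drug. The part of neutrophil, macrophage, Kupffer cell or hepatocyte RNA, or of RNA integrity, in the higher Ctsc and Ctsl was not tested.

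**Figure D5:**
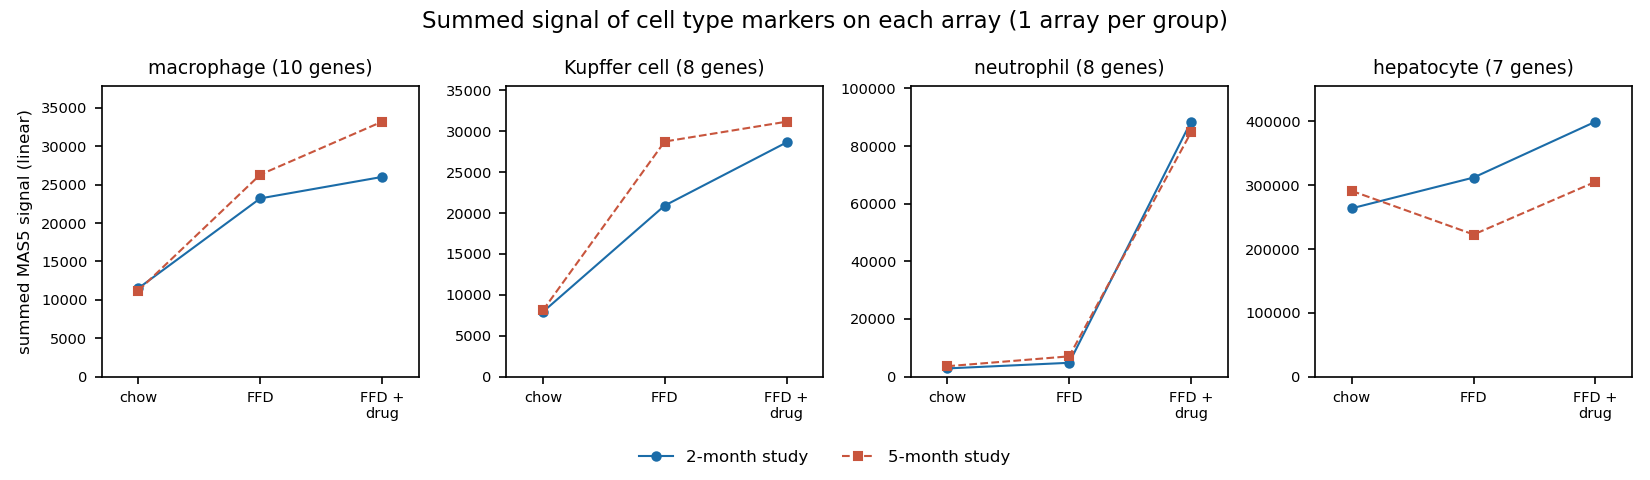
Summed MAS5 signal (linear, from 0) of the marker genes of 4 cell types on each array, with the number of genes on the array in brackets. Macrophage and Kupffer cell sums are lowest on both chow arrays, and the neutrophil sum is far higher on the drug arrays (88444 and 84709) than on the other 4, with Lcn2 alone at 73181 and 68150.0.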

How the data were processed

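MAS5 is the tool named by the submitters' processing notes, without a version. These deposited intensity values are linear, and on each array their mean without the lowest and highest 2% was 500. Arrays have no read depth, and their number limits the precision.

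Each gene was read from its one-symbol probe set of highest mean signal (34958 of 45101 probe sets had 1 symbol, 932 several, 9211 none). Signals were raised to the floor, then log2 transformed. Groups were compared as single arrays without a test, at 1.5-fold. The limma fit (limma 3.58.1, R 4.3.3) was added by earlier work on these data after they were seen, and counting was tested on simulated data. Members, lists and threshold were chosen with earlier results of these data known. All members may be named, and 4 other lysosomal genes per direction and treatment, ranked by the smaller difference of both studies and above the floor on all arrays. Alternatives were other normalizations, floors, thresholds and probe set rules, and drug with diet against chow was added later. RefSeq promoters are of GRCm38.p6. Python 3.11.15, NumPy 2.4.6, pandas 2.3.3 and matplotlib 3.10.9 were used.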

Additional observations from a re-analysis of the deposited data

Results flagged for a closer look

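Ctsf, which encodes the cysteine protease cathepsin F and is among the other lysosomal genes, differed in opposite directions with the diet in the 2 studies, and the difference between the studies was not tested. Its signal was 797 on chow and 27.5 on diet at 2 months, which below the floor gives a bound of at least 3.60-fold lower (log2 -1.85), and 571 and 951 at 5 months, or 1.67-fold higher (log2 0.74). On the drug arrays it read 78.9, which is below the floor, and 406. Ctsf has 2 probe sets, and only the brighter was read here, on single arrays.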

How the results depend on the processing

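Of 54 member differences past 1.5-fold over the 6 diet and drug comparisons, 49 stayed past it under quantile normalization, 49 under median centring, 52 with the floor at the 60th percentile, 54 with it at the 40th or with no floor, 35 with the mean over all probe sets, and 39 of 43 without _s_at, _x_at and _a_at probe sets. At 2-fold the counts of members higher and lower were 1 and 0 (diet, 2 months), 3 higher (diet, 5 months), 2 and 0 (drug, 2 months), 0 and 0 (drug, 5 months), 5 and 0 (drug and diet against chow, 2 months) and 3 higher (the same, 5 months). The mean in place of the median was 0.19 and 0.40 for the diet and 0.43 for drug and diet against chow at 5 months. Median centring gave medians of 0.19 (diet, 2 months) and 0.15 (drug, 2 months), and 1 lower with the diet at 2 months and 1 with the drug at 5 months. Quantile normalization left 1 higher with the drug at 5 months, Ctsl being at 0.50. The 60th percentile floor, which put Tfeb at -0.17, and genes above the floor on all arrays, which left Tfeb out, each left 1 lower with the diet at 2 months and 0 lower for drug and diet against chow at 2 months. The mean over probe sets gave 1 lower (diet, 2 months), 5 higher and 2 lower (drug, 2 months), 1 higher (drug, 5 months) and 5 higher (drug and diet against chow, 5 months), and turned Ctsa to -0.61 with the drug and -0.41 against chow at 2 months and Mcoln1 to 0.12 with the drug at 5 months. Without the suffixed probe sets, which left 23 members, 4 were higher and 4 lower with the diet at 2 months, 5 and 1 at 5 months, the drug median at 5 months was 0.17 with 1 lower, Man2b1 was at -0.14 with the diet at 2 months and Mcoln1 at 0.17 with the drug at 5 months. The cause of these shifts was not tested beyond the probe sets named. Arrays of 1 study were paired only in the limma fit, through its term for study. Dim genes, Gla and Tfeb, are limited by the floor.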
